A study of Mus musculus with 6 samples.

Results

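Igf1, Igfbp3, Pdgfc and Pdgfra are 4 genes of the insulin-like growth factor (IGF) and platelet-derived growth factor (PDGF) pathways, measured here by 7 probes of the 8734 on the array and counted as 4 of the 5644 genes with 1 symbol in the fit. They are described in mouse airway smooth muscle cultures with a beta2-adrenergic receptor transgene and in cultures without it. The genes were chosen by their measured ratios, so those ratios are given as a description with no test. All probes annotated with these symbols were taken, which gave 1 probe each for Igf1, Igfbp3 and Pdgfc and 4 probes for Pdgfra.

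IGF1 is a secreted growth factor that acts through a receptor tyrosine kinase on cell growth and survival, and binding proteins such as IGFBP3 hold it in the extracellular fluid. PDGF ligands are dimers that bring their receptors together, and they are known as mitogens and attractants of smooth muscle cells and fibroblasts. PDGF-C is secreted as an inactive precursor and, once cleaved, acts mainly on PDGF receptor alpha, the product of Pdgfra.

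The cells were grown from tracheal explants of 2AR-OE (transgenic, TG) and nontransgenic (NTG) mice, in medium with 20% serum, and RNA was taken at passages 8 to 10. More than 90% were smooth muscle cells by actin staining, per the labels, which name neither the promoter of the transgene nor the age of the mice. Each of the 6 arrays set TG RNA against NTG RNA in 2 colours. On 4 arrays the TG RNA was labelled with Cy5 (1A, 1B, 2A, 2B), and on the swapped arrays, 1C and 2C, it was labelled with Cy3. Arrays with the same number form what is called a set here, since the meaning of the number is not in the labels. They do not say either that arrays came from separate cultures or animals, so errors and p-values reflect array-to-array spread that may be technical. The design asks how persistent activity of the receptor alters gene expression.

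Values are log2 ratios, likely TG over NTG, since TG RNA is in the first channel of the 4 Cy5 arrays. The labels do not settle this, and if the ratio runs the other way every sign here turns. The deposited columns of the swapped arrays were read as already turned to the common direction. Among rows beyond 2-fold on all 4 Cy5 arrays, the 23 higher ones all kept their sign on both swapped arrays. Of the 13 lower ones, 6 kept it, 6 had the opposite sign on both swapped arrays and 1 was mixed. The question bears on Igf1, Igfbp3 and Pdgfc directly, and their values with the swapped signs turned are given with the dye orientations. In bulk RNA, fewer cells of a type and less RNA per cell cannot be told apart.

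Each array had 8495 to 8555 values and a median near 0, and array 1C had the widest spread, with an SD of 1.04 against 0.467 to 0.608 on the others. Arrays with TG RNA in Cy5 correlated with each other at r = 0.357 to 0.697, the 2 swapped arrays at 0.313, and arrays of opposite orientation at 0.009 to 0.179 across probes. Without spot intensities, which were not used here, the signal under each ratio is unknown, and the number of arrays limits the precision. Of 13 smooth muscle markers 3 had values, and a ratio does not show whether a marker is present. Of these, Cnn1, which encodes calponin, rose by 0.59 ± 0.11 (SE, n = 6 arrays; limma adjusted p = 0.028), a call lost without array 1A, 1B, 1C, 2A or 2B and with a random replicate block for the set (limma adjusted p = 0.0602). The other 2, Smtn at -0.05 and Cald1 at -0.12, did not pass, and the median of the 3 was -0.05.

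The 250 bases before the annotated start of each gene are shown because 3 of the 4 genes had ratios below 0 on every array, so that the motifs in each window can be read side by side. They are RefSeq sequences of the GRCm38.p6 assembly on the strand of the gene. They lie at chr10:87860861-87861110 (plus strand) for Igf1, chr11:7213924-7214173 (minus strand) for Igfbp3, chr3:81036166-81036415 (plus strand) for Pdgfc and chr5:75152001-75152250 (plus strand) for Pdgfra. Capitals mark matches to TGACG, part of the cyclic AMP response element, and to TGANTCA, each sought on both strands. TGANTCA is a loose form of the AP-1 motif that allows any middle base.
Igf1: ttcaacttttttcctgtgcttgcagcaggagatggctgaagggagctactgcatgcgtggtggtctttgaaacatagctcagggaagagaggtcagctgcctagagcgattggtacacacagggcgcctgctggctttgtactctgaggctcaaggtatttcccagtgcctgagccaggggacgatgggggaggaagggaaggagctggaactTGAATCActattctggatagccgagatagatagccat
Igfbp3: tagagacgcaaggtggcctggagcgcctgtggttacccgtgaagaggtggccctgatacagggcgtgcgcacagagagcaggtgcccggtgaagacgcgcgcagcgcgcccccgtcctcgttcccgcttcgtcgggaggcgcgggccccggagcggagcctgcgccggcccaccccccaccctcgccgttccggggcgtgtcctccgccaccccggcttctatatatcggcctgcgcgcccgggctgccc
Pdgfc: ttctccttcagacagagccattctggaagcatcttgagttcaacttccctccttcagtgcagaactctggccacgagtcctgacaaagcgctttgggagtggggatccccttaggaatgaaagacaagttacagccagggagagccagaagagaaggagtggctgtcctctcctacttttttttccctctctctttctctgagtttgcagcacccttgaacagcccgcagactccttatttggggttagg
Pdgfra: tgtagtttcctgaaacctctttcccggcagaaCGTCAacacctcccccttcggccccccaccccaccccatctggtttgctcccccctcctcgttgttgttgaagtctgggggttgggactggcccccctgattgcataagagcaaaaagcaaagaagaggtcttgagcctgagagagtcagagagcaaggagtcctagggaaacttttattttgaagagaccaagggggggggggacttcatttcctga
The whole element TGACGTCA, which contains TGACG, was in none of the 4 windows and in 1.55% of 32851 RefSeq promoter windows of this length. TGACG occurred once, in Pdgfra, on the opposite strand 218 bases before the start, and 17.8% of all windows held it. TGANTCA occurred once, in Igf1, as TGAATCA 37 bases before the start. With any middle base, TGANTCA was in 6.75% of all windows. CCAAT was found in Igf1 on the opposite strand 142 bases before the start and is in 33.8% of all windows. Neither the GC box GGGCGG (32.7% of all windows) nor TATAAA (12.4%) was in any of the 4. The Igfbp3 window had a GC content of 73.2%, against 52.8% for Igf1, 50.8% for Pdgfc and 54.4% for Pdgfra. The median of all windows was 52.4%, with quartiles of 45.2% and 61.2%. A match is a description of letters and not of a bound site.

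Igf1, Igfbp3 and Pdgfc each had ratios below 0 on all 6 arrays, and Pdgfra was near 0. The 3 lower genes were fitted at 1.95-fold to 2.67-fold below the nontransgenic cells. In the limma fit across 6807 rows, 3 of the 4 genes were called lower at an adjusted p under 0.05. In that fit 7.11% of all rows were called, 3.09% lower and 4.03% higher, and 8.51% of 6756 rows with 6 values lay below 0 on all 6 arrays. The genes were chosen on this contrast, so nothing is read from their count.

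Igf1, the ligand of the IGF pathway, had log2 ratios of -1.17 on array 1A, -0.90 on 1B, -0.78 on 1C, -0.89 on 2A, -0.97 on 2B and -1.10 on 2C. The 6 values lay close together (SD 0.142), and the swapped arrays held the highest and one of the lowest of them. The fitted log2 ratio was -0.96 ± 0.08 (SE, n = 6 arrays), a 1.95-fold lower ratio, and 1.15% of all rows lay lower. The mean was -0.95 in set 1 and -0.99 in set 2, so the sets differed by less than the spread within set 1 (0.382).

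Igfbp3 encodes the main carrier of IGFs in serum, which cells of many tissues also secrete. Its log2 ratios were -1.06 on array 1A, -0.84 on 1B, -1.42 on 1C, -1.11 on 2A, -1.15 on 2B and -0.95 on 2C. Array 1C was the lowest and 1B the highest, and the swapped array 2C lay among the arrays with TG RNA in Cy5. The fitted log2 ratio was -1.11 ± 0.09 (SE, n = 6 arrays), or 2.16-fold lower. The set means were -1.11 and -1.07.

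Pdgfc, the PDGF ligand among the 4, had log2 ratios of -0.93 on array 1A, -0.98 on 1B, -2.23 on 1C, -0.99 on 2A, -0.84 on 2B and -1.57 on 2C. Both swapped arrays were lower than all 4 others, so the dye orientations did not overlap. How many of all rows split by orientation in this way was not counted. The 4 arrays with TG RNA in Cy5 had a mean of -0.93 with an SD of 0.07 (n = 4), a 1.91-fold lower ratio. The 2 swapped arrays had a mean of -1.90, or 3.74-fold lower. Since the fit weighs both orientations equally, its value of -1.42 ± 0.10 (SE, n = 6 arrays), or 2.67-fold, lies between them. The ratio was below 0 in both orientations, and its size depends on which is taken.

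Pdgfra encodes the receptor that PDGF-C and PDGF-A bind. The mean of its 4 probes had log2 ratios of -0.09 on array 1A, -0.13 on 1B, -0.50 on 1C, -0.07 on 2A, 0.22 on 2B and 0.44 on 2C. The ratio lay below 0 on 4 arrays and above 0 on 2, and the fitted value was -0.02 ± 0.14 (SE, n = 6 arrays). The 3 lowest values were those of set 1, with a mean of -0.24, against 0.20 in set 2. In the order of fitted ratios Pdgfc was lowest, then Igfbp3, Igf1 and Pdgfra, and over the arrays with TG RNA in Cy5 Igf1, Igfbp3 and Pdgfc did not differ beyond their spread.

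**Figure D1:**
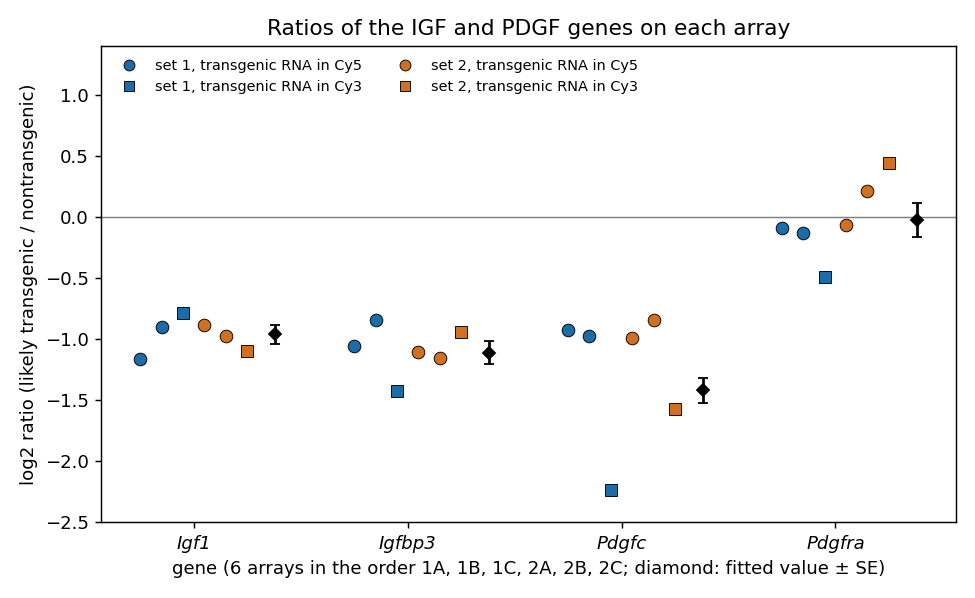
Log2 ratios (vertical axis, likely TG over NTG) of Igf1, Igfbp3, Pdgfc and the probe mean of Pdgfra on the 6 arrays. Circles are arrays with TG RNA in Cy5 and squares the swapped arrays, blue is set 1 and orange set 2, and the diamond is the limma value with its SE. Igf1, Igfbp3 and Pdgfc lie below 0 on all 6 arrays, both squares of Pdgfc lie under its circles, and Pdgfra spans -0.50 to 0.44.

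The 4 Pdgfra probes did not behave alike. Probe 479895 was above 0 on all 6 arrays, from 0.09 to 0.26, with a fitted log2 ratio of 0.19 ± 0.06 (SE, n = 6 arrays). Probe 735605 was fitted at 0.15 ± 0.07 and was below 0 on array 1C only, at -0.06. These 2 probes put the receptor slightly above 0 and differ little from each other.

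Probe 721790 read -0.57 on array 1A, -0.62 on 1B, -1.25 on 1C, 0.27 on 2A, 0.26 on 2B and -0.03 on 2C. All 3 arrays of set 1 were thus lower than all 3 of set 2, with means of -0.81 and 0.17. The share of all probes that split by set in this way was not counted. Probe 818704 read -0.06 on array 1A, -0.14 on 1B, -0.83 on 1C, -1.03 on 2A, 0.06 on 2B and 1.31 on 2C. It was below 0 on all 3 arrays of set 1 and of mixed sign in set 2 (SD 0.825 over the 6 arrays).

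The fitted values of the 4 probes spanned 0.59 on the log2 scale. Among 37 genes with 4 probes the median span was 0.43 (range 0.09 to 1.51), and 11 genes had a wider span. Igf1, Igfbp3 and Pdgfc have 1 probe each, so no such comparison can be made for them. The position of the probes in the transcript was not analysed here.

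**Figure D2:**
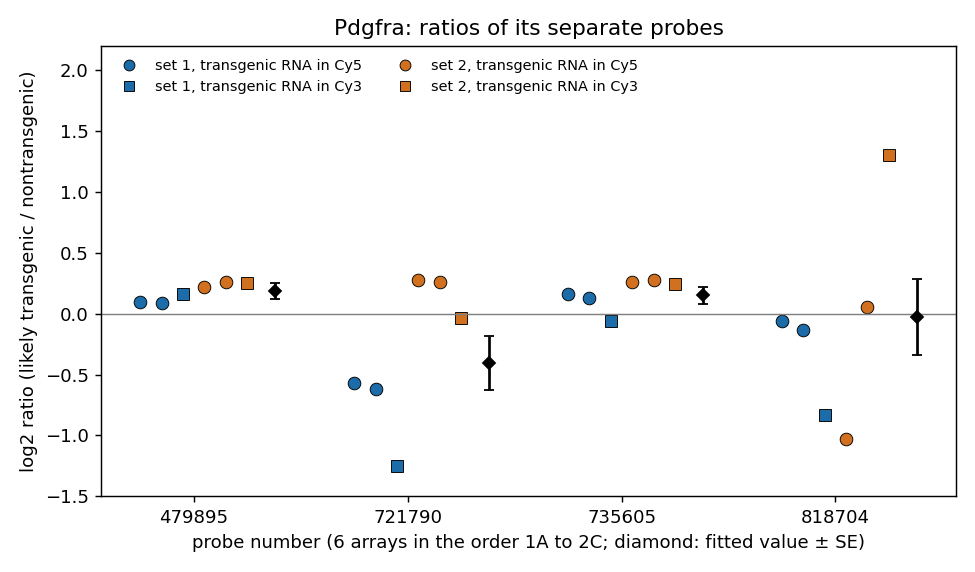
Log2 ratios (vertical axis, likely TG over NTG) of the 4 Pdgfra probes, named by probe number, on the 6 arrays, with symbols as circles for TG RNA in Cy5, squares for swapped arrays, blue for set 1, orange for set 2 and a diamond for the limma value with its SE. Probes 479895 and 735605 stay close to 0, 721790 separates the sets, and 818704 runs from -1.03 to 1.31.

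The 4 genes differed in how far their ratios depended on the dye orientation and the set. The dye coefficient, the part of a log2 ratio that changes sign with the orientation, was -0.02 ± 0.08 for Igf1, 0.07 ± 0.09 for Igfbp3, 0.49 ± 0.10 for Pdgfc and 0.00 ± 0.14 for Pdgfra (SE, n = 6 arrays). Pdgfc thus had the largest dye coefficient of the 4. Set 2 minus set 1 came to -0.04 ± 0.14 for Igf1, 0.04 ± 0.17 for Igfbp3, 0.24 ± 0.16 for Pdgfc and 0.44 ± 0.20 for Pdgfra. Fitted within one set, Pdgfra differed in sign, at -0.30 in set 1 and 0.26 in set 2. Within the sets Igf1 was at -0.91 and -1.01, Igfbp3 at -1.19 and -1.04, and Pdgfc at -1.59 and -1.24.

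If the swapped columns were not already turned, their sign has to be changed before the fit. The log2 ratio of Igf1 then became -0.02, that of Igfbp3 0.07, that of Pdgfc 0.49 and that of Pdgfra 0.00, and the lower ratios went to the dye term. In that reading the ratios of Igf1 and Igfbp3 follow the dye and not the genotype. Pdgfc then follows the dye for the larger part and keeps a genotype part of 0.49 ± 0.10 (SE), above 0 instead of below. The labels do not say which reading is right.

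**Figure D3:**
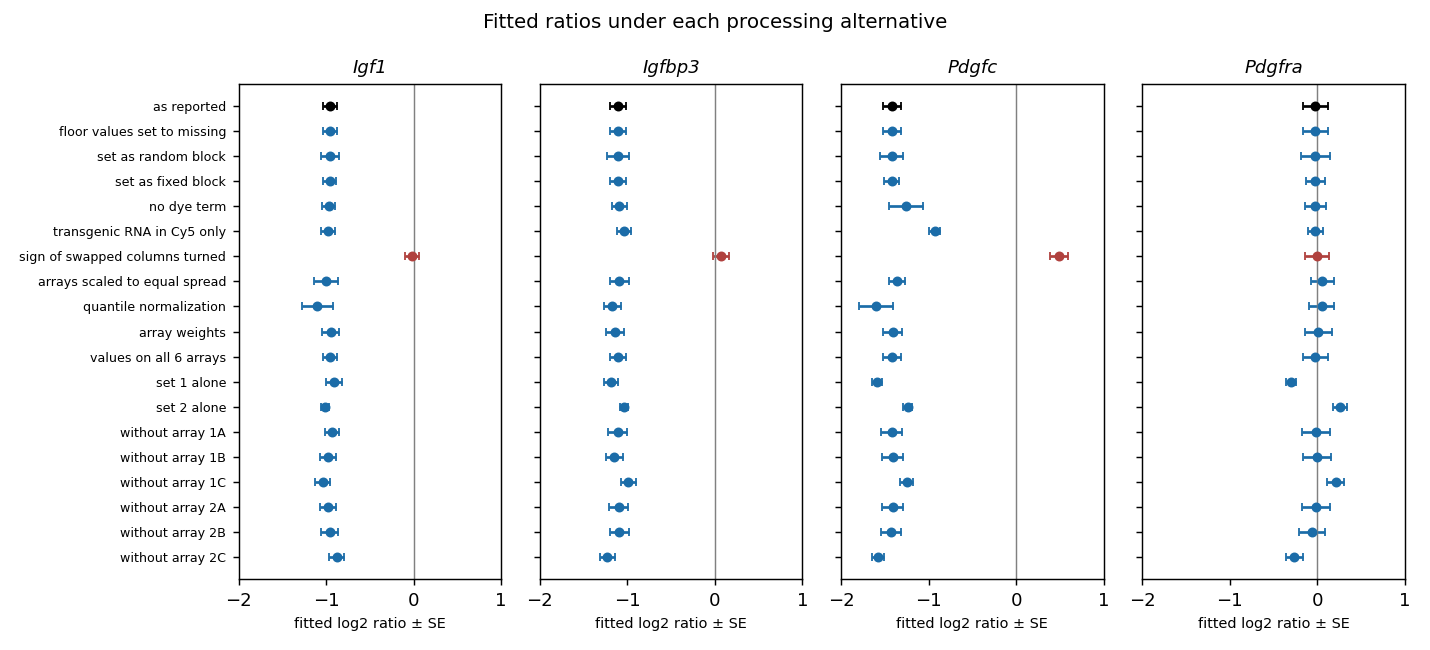
Fitted log2 ratio with its SE (horizontal axis) of Igf1, Igfbp3, Pdgfc and Pdgfra under each processing alternative, one line each. Black is the value as reported, blue the alternatives and red the fit with the sign of the swapped columns turned, in which Igf1 moves to -0.02, Igfbp3 to 0.07 and Pdgfc to 0.49. In the blue points Igf1, Igfbp3 and Pdgfc stay below 0, and Pdgfra lies between -0.30 and 0.26.

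Igf1 and Igfbp3 were the closest pair in level, though not in the order of the arrays: array 1C was the highest for Igf1 and the lowest for Igfbp3. Their log2 ratios differed by a root mean square of 0.297, against 0.446 for Igfbp3 and Pdgfc and 0.635 for Igf1 and Pdgfc. Each differed from Pdgfra by more than 1 log2 unit, with 1.024 for Igf1, 1.093 for Igfbp3 and 1.32 for Pdgfc. These values describe 6 arrays of the same comparison, and the labels do not say whether their RNA came from separate cultures.

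Among 5562 genes with values on all 6 arrays, those closest to each gene by the same measure were taken. Their likeness to the gene, on each array and in the fitted value, follows from this choice. Closest to Igf1 were Fn1 (fibronectin, root mean square difference 0.17), Agrn (the matrix proteoglycan agrin, 0.237) and Col5a1 (a collagen V chain, 0.248). Fn1 was fitted at a log2 ratio of -0.83 ± 0.06 (SE, n = 6 arrays), close to the -0.96 of Igf1. Closest to Igfbp3 were Tgfb2 (a transforming growth factor beta ligand, 0.193), Col3a1 (a collagen III chain, 0.204) and Slc5a3 (a sodium-coupled inositol transporter, 0.207). Tgfb2 was fitted at -1.03 ± 0.09 and Col3a1 at -1.29 ± 0.10.

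Pdgfc was closest to Pmepa1 (0.274), Slc5a3 (0.323) and Smim3 (0.336). Pmepa1, a membrane protein that restrains transforming growth factor beta signalling, read -1.79 on array 1C and Smim3 -2.49. Array 1C was part of the measure that picked them, so a low value there is no separate result. For Pdgfra the closest were Grap2 (an adaptor of receptor signalling, 0.116), Pcm1 (a centriolar satellite protein, 0.119) and Zbtb16 (a zinc finger transcription factor, 0.125). All 3 were fitted near 0, from -0.01 to 0.01.

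Among the partners of the 4 genes, no ligand or binding protein passed the test in the fit to all 6 arrays. None of 5 genes in the list of IGF binding proteins and their proteases was called, nor either of 2 in the list of PDGF ligands and their proteases, nor Igf2, against 7.11% of all rows. Under alternatives Igf2 passed over the arrays with TG RNA in Cy5, where its mean was -0.52, and Igfbp5 passed without array 2C (limma adjusted p = 0.0192). Stc1 passed in both of these and within each set, but in opposite directions. It was lower over the arrays with TG RNA in Cy5 (mean -0.565) and in set 2 (mean -0.548). In set 1 (mean 0.175) and without array 2C it was higher, where array 1C read 1.51. Igf1r, Insr, Igfbp2, Igfbp4, Igfbp6, Igfbp7, Pdgfb, Pdgfd, Pdgfrb and Pdgfrl were not analysed here. Over all pathway lists, 62 genes other than the 4 had values, of which 2 rose and 5 fell (11.3%). Their median log2 ratio was -0.02, with 35 below 0, and the median of all rows was 0.00.

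Igf2, the other IGF ligand, had log2 ratios of -0.25 on array 1A, -0.53 on 1B, -0.15 on 1C, -0.72 on 2A, -0.57 on 2B and 0.51 on 2C. The 2 swapped arrays were the highest, and the fitted value of -0.17 ± 0.12 did not pass the test (limma adjusted p = 0.378). Its 2 probes were fitted at -0.02 and -0.31. On the arrays with TG RNA in Cy5 the first, 463135, read -0.10 to 0.04 and the second, 464598, -1.33 to -0.47. On the swapped arrays probe 464598 read 0.02 (1C) and 0.72 (2C), so the lower mean over the Cy5 arrays came mainly from that probe. Pdgfa, a PDGF ligand that also binds PDGF receptor alpha, stayed between -0.14 and 0.07 and was fitted at -0.05 ± 0.06 (limma adjusted p = 0.625).

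Of the other binding proteins, Igfbp5 was fitted at a log2 ratio of -0.31 ± 0.10 (limma adjusted p = 0.11) and was below 0 on 6 of 6 arrays. Its 3 probes were fitted at -0.83, 0.07 and -0.17, so they did not share a direction. Igfbp1 was at -0.20 ± 0.09 (limma adjusted p = 0.235). Igfals, which stabilises the complex of IGF with its binding protein, was at 0.16 ± 0.09 (limma adjusted p = 0.284). The protease Htra3 was at 0.17 ± 0.12 (limma adjusted p = 0.409).

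Furin, a protease that cuts the precursors of many growth factors, lay below 0 on 6 of 6 arrays. Its fitted log2 ratio of -0.55 ± 0.13 did not pass the test (limma adjusted p = 0.0635). Fitted singly, 1 of its 2 probes passed, at -0.40 (limma adjusted p = 0.0478), and the other did not, at -0.69 (limma adjusted p = 0.0943). The gene also passed with the set as a fixed term, with no dye term, with quantile normalization and in set 2 alone.

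On the receiving side of the IGF pathway, Grb10 rose. It encodes an adaptor that binds the IGF1 and insulin receptors and dampens their signal. Its log2 ratios were 0.38 on array 1A, 0.73 on 1B, 0.47 on 1C, 1.39 on 2A, 1.34 on 2B and 1.09 on 2C. All 3 arrays of set 2 were above all 3 of set 1, a split that was not counted over all rows, and all 6 were above 0. The fitted value was 0.87 ± 0.18 (SE, n = 6 arrays; limma adjusted p = 0.0428). The call was lost with a random replicate block for the set (limma adjusted p = 0.0759), with scaled (0.0627) or quantile-normalized arrays (0.0692), with array weights (0.0949), in set 1 alone (0.08), and without array 1B, 1C, 2A, 2B or 2C, with limma adjusted p from 0.0448 to 0.109 over the 6 omissions.

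Igf2r, which takes up and degrades IGF2, was at -0.14 ± 0.08 (limma adjusted p = 0.297). Of the receptor substrates, Irs1 was at -0.09 ± 0.06 (limma adjusted p = 0.39) and Irs2 at 0.88 ± 0.36 (limma adjusted p = 0.175). The Irs2 value came mainly from array 1C, which read 3.44 against -0.65 to 0.72 on the other arrays. Without that array it was 0.20 ± 0.14 (limma adjusted p = 0.508).

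In the VEGF branch of the PDGF family, 1 of 5 measured genes fell. Nrp2, a co-receptor for vascular endothelial growth factors and semaphorins, read -0.72 on array 1A, -0.85 on 1B, -1.77 on 1C, -1.20 on 2A, -0.99 on 2B and -0.88 on 2C. All 6 ratios were below 0, and array 1C was the lowest, as for Igfbp3 and Pdgfc. The fitted log2 ratio was -1.13 ± 0.14 (SE, n = 6 arrays; limma adjusted p = 0.0104). It passed the test without each array in turn and with a random replicate block for the set (limma adjusted p = 0.0467). Nrp1, Flt1, Flt4 and Pgf, at -0.28 to 0.09, did not pass in the fit to all 6 arrays. Nrp1 passed as lower over the arrays with TG RNA in Cy5 (mean -0.507), while array 1C read 0.486. In set 2 the mean was -0.576 for Nrp1 and -0.259 for Flt1.

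Of 17 measured genes of signalling below both receptors, 1 rose and 2 fell. Pdpk1, the kinase that activates AKT, rose by 0.86 ± 0.14 on the log2 scale, above 0 on 6 of 6 arrays (limma adjusted p = 0.0218). Rasa1, which switches RAS off, fell by 0.63 ± 0.08 and was below 0 on 6 of 6 arrays (limma adjusted p = 0.0119). Pik3cb, a catalytic subunit of phosphoinositide 3-kinase, was called at -3.71 ± 0.44 over 5 arrays (limma adjusted p = 0.0148), with no value on array 1C. That value rests on array 2C, where it lay at the floor of the table (-6.64, a ratio of 0.01). The 4 arrays with TG RNA in Cy5 ran from -1.99 to 0.43, and with floor values missing the gene left the fit. Akt2, one of the AKT kinases, then went from -0.12 (limma adjusted p = 0.898) to 0.34 (limma adjusted p = 0.0458), so that 2 genes of the list were called higher and 1 lower.

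Spred1, an inhibitor of RAS signalling, fell by 0.70 ± 0.10 (limma adjusted p = 0.0151; below 0 on 6 of 6 arrays) and was the single call among 8 immediate early and feedback genes. Gdnf, a ligand of the RET receptor, fell by 0.63 ± 0.10 (limma adjusted p = 0.0183; below 0 on 6 of 6 arrays) and was the single call among 9 other growth factors. None of 11 receptors of other growth factors was called in the fit to all 6 arrays. Under alternatives Ngfr passed as lower over the arrays with TG RNA in Cy5 (mean -0.826). Ddr1 (higher) and Tek (lower) passed with the set as a fixed term. Axl had means of opposite sign in the sets, at 0.411 in set 1 and -0.335 in set 2. Over all rows 7.11% were called, so little can be read from counts in lists this short. With the sign of the swapped columns turned, none of the 7 pathway calls remained. Without array 1C the calls of Pdpk1 (limma adjusted p = 0.0609), Rasa1 (0.0571), Spred1 (0.0739) and Gdnf (0.0854) were lost. The call of Pdpk1 was also lost without 1A, 1B, 2A or 2B, that of Spred1 without 2B, that of Gdnf without 1B, 2A or 2B, and that of Pik3cb without 1A or 2A. With a random replicate block for the set Pdpk1 (limma adjusted p = 0.051) and Gdnf (limma adjusted p = 0.0668) did not pass. Array weights removed the calls of Pdpk1 (limma adjusted p = 0.0583), Spred1 (0.0739), Gdnf (0.0564) and Pik3cb (0.0877). Pik3cb was also lost with no dye term (limma adjusted p = 0.286) and over the arrays with TG RNA in Cy5 (0.225), and Gdnf in set 1 alone.

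**Figure D4:**
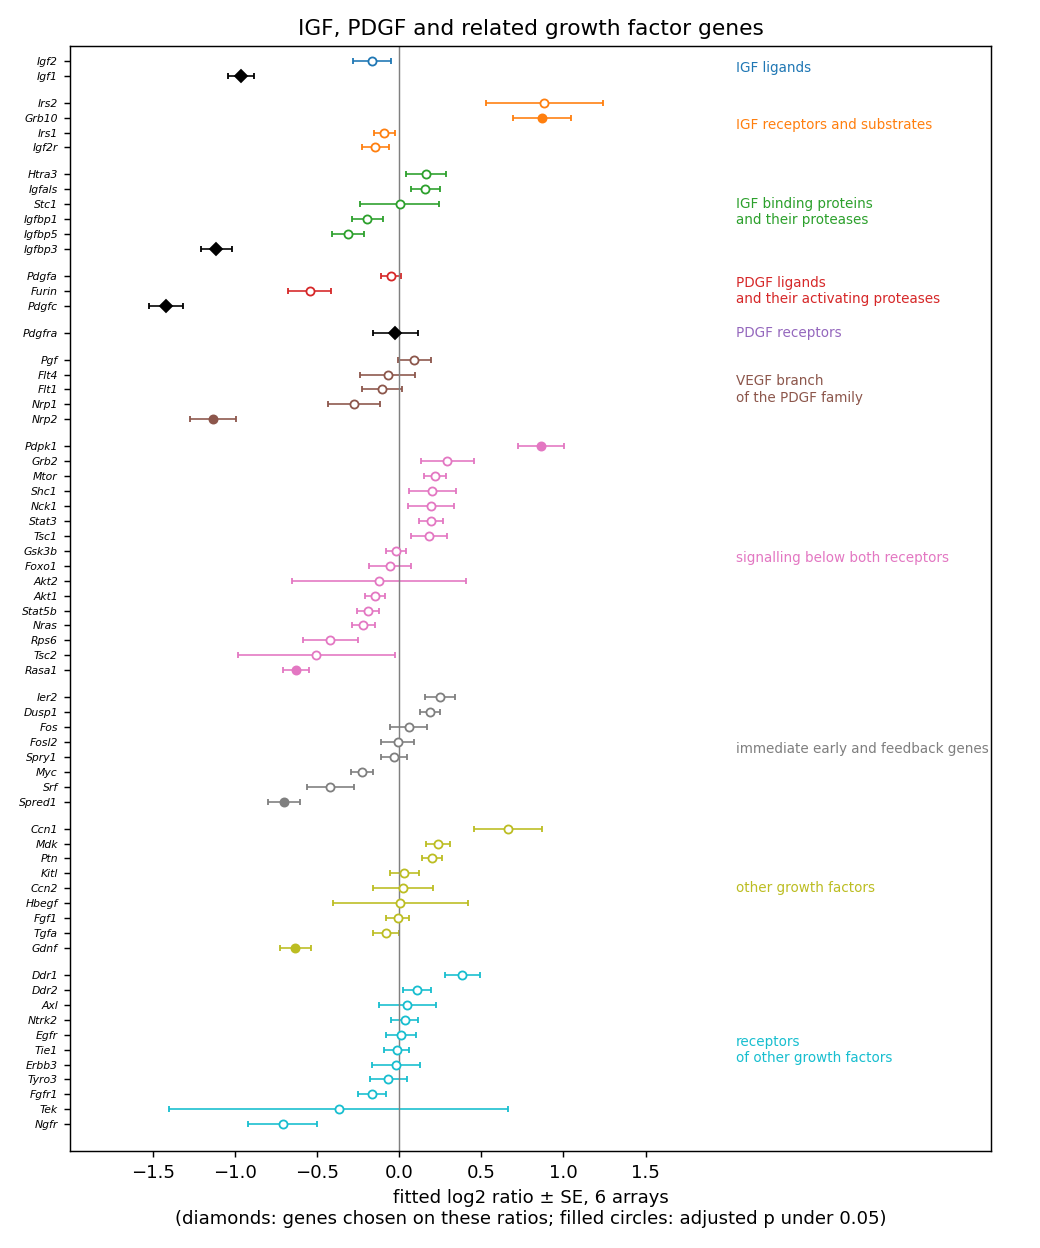
Fitted log2 ratios with their SE (horizontal axis, likely TG over NTG) of the measured genes in each pathway list. Diamonds are Igf1, Igfbp3, Pdgfc and Pdgfra, which were chosen on these ratios, filled circles are genes with a limma adjusted p under 0.05, and Pik3cb, at -3.71, is left out. Nrp2 at -1.13 is the lowest circle, and Grb10 at 0.87 and Pdpk1 at 0.86 are the filled circles above 0.

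Array 1C set several growth factor genes apart from the other arrays, and these genes were picked after their values were seen. Hbegf, an EGF receptor ligand, read 2.29 on array 1C and -0.96 to -0.48 on the other 5. Its fitted log2 ratio was 0.01 ± 0.41 (limma adjusted p = 0.994), and without array 1C -0.81 ± 0.09 (limma adjusted p = 0.0258). Without array 2C Hbegf was higher instead, with array 1C as the only swapped array left. Stc1, which inhibits a protease of IGF binding proteins, read 1.51 on array 1C and -0.66 to -0.37 elsewhere. Without array 1C it was at -0.47 ± 0.07 (limma adjusted p = 0.0501). The part of array 1C in the ratios of Igf1, Igfbp3, Pdgfc and Pdgfra is shown directly by leaving it out, which gave -1.04, -0.99, -1.25 and 0.21.

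Markers of other cell types were set beside the ratios, since cultures from explants can hold more than one type. The fit called 7.11% of all rows, and lists this short give no rate to set against it. Of 7 fibroblast markers 2 rose, Thy1 by 2.73 ± 0.21 (limma adjusted p = 0.00411) and Mfap5 by 0.81 ± 0.07 (limma adjusted p = 0.0045), and the mean of the list lay between 0.43 and 0.99 on the 6 arrays. The other 5 did not pass: Dpt was fitted at 1.67, Lum at 0.70, Cd34 at 0.05, Tcf21 at -0.09 and Col1a1 at -1.21 (limma adjusted p = 0.0752, below 0 on 5 of 6 arrays). Of the 7, 2 were thus below 0. Dpt read -1.015 on array 1B and 1.829 to 2.274 on the other arrays, and it passed without array 1B. Of 4 endothelial markers none was called, all were fitted below 0, and the list mean ran from -0.95 to -0.13. The lowest of them, Cdh5 at -0.835, held 1 floor value and was at -0.234 with floor values missing. Of 5 cartilage markers 1 fell, Col11a1 by 1.10 ± 0.09 (limma adjusted p = 0.00411), with a list mean of -0.47 to -0.20. Of 4 neural and Schwann cell markers Uchl1 fell by 0.46 (limma adjusted p = 0.0395) and L1cam by 0.45 (limma adjusted p = 0.022), and the list mean ran from -0.38 to 0.02. One of 3 epithelial markers rose (Cdh1, by 0.32, limma adjusted p = 0.0333), with a list mean of -0.32 to 0.51, and none of 6 leukocyte markers was called, with a list mean of -0.16 to 0.06. The calls of Uchl1, L1cam and Cdh1 were lost without array 1A, 1B, 1C, 2A or 2B and with a random replicate block for the set (limma adjusted p = 0.109, 0.0679 and 0.101), and those of Thy1, Mfap5 and Col11a1 passed without each array in turn. The 3 smooth muscle markers had means of 0.02 to 0.32. A ratio cannot tell whether any marker is at 0 in either cell, and the part of these cell types in the lower ratios of Igf1, Igfbp3 and Pdgfc was not tested.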

How the data were processed

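The authors deposited a log2 ratio for each probe on each array. Labelled cDNA of both genotypes competed on printed slides, per the labels' protocols. How slides were scanned, corrected for background and normalized is not given in the sources used here. Symbols came from the platform annotation: 7540 probes had 1, 14 had several and 1180 had none, and 7493 matched a gene of the GRCm38.p6 table. Probes of one symbol were averaged per array, and rows with values on at least 4 arrays and in both orientations (6807, of which 5644 had 1 symbol) entered the fit. The fit was limma 3.58.1 (R 4.3.3; lmFit, eBayes) with a genotype and a dye coefficient, both as log2 ratios, and Benjamini-Hochberg adjusted p under 0.05 over all rows; a further term gave set 2 minus set 1. It was tested on simulated data. Python 3.11.15, pandas 2.3.3, numpy 2.4.6 and matplotlib 3.10.9 did the rest.

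The 4 genes, the pathway and marker lists and the tests were chosen with earlier results of these data known. Named were the 4 genes with their probes, their ligand, receptor and binding partners, the called pathway genes (all where a list had up to 6), other genes beside them to complete a list, and for each of the 4 the 3 genes with the smallest root mean square difference over the 6 arrays. Alternatives were single probes, floor values missing, the set as random or fixed block, no dye term, one orientation, turned signs, scaling, quantile normalization, array weights, complete rows, single sets and leaving out each array. RefSeq promoter windows were matched by symbol, 4 of 4. Protein and probe sequences were not used here.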

Additional observations from a re-analysis of the deposited data

Results flagged for a closer look

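Of 31 sets of 4 ratios with TG RNA in Cy5 that were examined for an array far from the others, 1 stood out, and chance alone flags about 1 in 20. It was Zbtb16, a gene with a profile like that of Pdgfra, with a log2 ratio of 0.047 on array 2B against -0.197, -0.187 and -0.156 on the other 3. Its gap took 0.832 of the range, just past the limit for 4 arrays.

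Pcm1, which also resembled Pdgfra, moved in opposite directions in the sets. Its log2 ratio was below 0 on all 3 arrays of set 1 and above 0 on all 3 of set 2, with a difference of 0.335 between the set means. The limma fit with a set term called 0 of 6807 rows at an adjusted p under 0.05, so that difference did not pass. The gene was picked because its ratios follow Pdgfra, whose set difference of 0.44 ± 0.20 did not pass in that fit either. Pdgfra probes 479895 and 735605 had means above 0 in both sets.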

How the results depend on the processing

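Igf1, Igfbp3 and Pdgfc kept ratios below 0 under 18 alternatives each, at -1.10 to -0.88, -1.23 to -0.99 and -1.60 to -0.93. With the sign of the swapped columns turned they were at -0.02, 0.07 and 0.49, because the lower ratio then enters the dye term. Pdgfc was highest, at -0.93, with TG RNA in Cy5 only. Pdgfra ran from -0.30 to 0.26 over 17 alternatives. Without each array in turn the ranges were -1.04 to -0.88 for Igf1, -1.23 to -0.99 for Igfbp3, -1.58 to -1.25 for Pdgfc, and -0.26 (without 2C) to 0.21 (without 1C) for Pdgfra.

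The limma fit called 484 rows for genotype, 43.4% of them lower (1888 at an unadjusted p under 0.05). The count was 197 with a random replicate block for the set, 1168 as a fixed one, 1049 with Cy5 arrays alone, 159 with array weights, 1057 in set 1, 907 in set 2 and 1 with turned signs. Without each array in turn it ran from 168 (without 2A) to 1687 (without 2C). Beside these extremes it was 250 without 1A, 204 without 1B, 176 without 1C and 171 without 2B. The share called lower was 34.3% in set 1 and 56.4% in set 2. The pathway genes called, 7 in the reported fit, were 4 with the random replicate block, 13 with the fixed one, 16 with Cy5 arrays alone, 16 in set 2, 2 with array weights, 0 with turned signs, and 3 to 13 without each array. Turned signs put Nrp2 at 0.19, Rasa1 at 0.16, Spred1 at 0.08, Pdpk1 at -0.04 and Pik3cb at 2.93. The dye term had 1 limma call (1242 unadjusted), 0 with single probes (1546 unadjusted) and 0 with floor values missing (1244 unadjusted). It had 484 with turned signs, since the terms then change places, and 1 to 990 without each array. Set 2 minus set 1 had 0 limma calls (1616 unadjusted), 1 with single probes and 3 with scaled arrays, and 0 to 0 without each array. Where no construction is named, the cause was not tested. No replicate numbers are shared between the orientations, so the set served as the block (within-set correlation 0.295).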

Other observations

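Grb2, an adaptor that links both receptor families to RAS, read 1.25 on array 1C and -0.13 to 0.04 on the other 5 arrays. It was fitted at a log2 ratio of 0.29 ± 0.16 (limma adjusted p = 0.287), and without array 1C at -0.01 ± 0.07 (limma adjusted p = 0.953). It was picked after its values were seen.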
